A study of Homo sapiens with 4 samples.

Results

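The subject is the set of 53 human genes that license replication origins, fire them, run the replication fork, supply deoxynucleotides or control entry into S phase, measured in HEL cells after knockdown of AFF4. The members were chosen by gene symbol for these roles, with earlier results of these data known. They were all present among the 28103 genes of the count table. All 53 passed the filter on low counts that left 13572 tested genes. HEL is an established line from a human erythroleukaemia, and its cells carry features of red cell and platelet precursors. The compared groups were AFF4_KD (genotype AFF4 knockdown, 2 libraries) and Ctrl (genotype WT, 2 libraries), both of poly(A) RNA from HEL cells grown in RPMI-1640 with serum. The sources used here do not give how the knockdown was made or how long it ran. The libraries are called replicates in the labels, with nothing on separate cultures, so each p-value reflects only how far these 4 libraries spread, and that spread may be technical.

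DNA replication starts where the origin recognition complex (ORC), with CDC6 and CDT1, loads the ring of MCM2 to MCM7 onto DNA, a step called licensing. The kinases CDC7-DBF4 and CDK2 with cyclin E then join CDC45 and GINS to the ring and turn it into a moving helicase. At the fork, primase and polymerase alpha start each strand, RFC loads the sliding clamp PCNA, polymerases delta and epsilon extend, RPA coats single strands, and FEN1 and LIG1 finish the lagging strand. Many of these genes are transcribed in late G1 and early S phase under E2F transcription factors. AFF4 holds together the super elongation complex, which helps paused RNA polymerase II to leave promoters, and the study's title names that release as its subject.

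Total counts ranged from 14903878 to 19129008 per library. AFF4 (chromosome 5, 132875379 to 132963634, hg38) had 338 and 319 reads in the AFF4_KD libraries, against 1650 and 1033 in the Ctrl libraries. It fell by 2.07 ± 0.19 on the log2 scale (SE; edgeR quasi-likelihood test, adjusted p = 0.0268), a call lost under a stricter filter on low counts (-2.10, adjusted p = 0.0552). All 10 erythroid markers examined were above 1 CPM (counts scaled to library size) in every library, and their summed level was 8338 and 8156 CPM in AFF4_KD and 11691 and 13384 CPM in Ctrl. Of 8 megakaryocyte markers, 6 were above 1 CPM in every library and GP1BB was at 0 throughout, and the list summed to 1652 and 1775 CPM in AFF4_KD and 1792 and 2638 CPM in Ctrl. The 3 T cell markers in the table were at 0 in all libraries, and so were 3 of the 4 fibroblast markers. The monocyte list summed to 52.8 and 49.3 CPM in AFF4_KD and 61.1 and 55.3 CPM in Ctrl, nearly all of it LYZ. The epithelial list summed to 44.3 and 43.8 CPM in AFF4_KD and 51.8 and 66.5 CPM in Ctrl, from the keratins KRT8 and KRT18, with CDH1 at 1 read or fewer. The B cell list summed to 2.16 and 2.32 CPM in AFF4_KD and 1.77 and 2.54 CPM in Ctrl. The part of these marker differences in the results was not tested.

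None of the 53 replication genes passed the test between AFF4_KD and Ctrl, and most lay slightly lower in AFF4_KD. With edgeR, 0 members were higher and 0 lower at an adjusted p under 0.05, where 0.346% of all tested genes were higher and 0.295% lower. Without adjustment, 4 members (7.55%; RPA3, ORC1, E2F2 and RFC5) were lower at p under 0.05 and 0 were higher, where 8.19% of all tested genes were lower and 6.79% higher. DESeq2 called 0 members, where 1.41% of genes were higher and 1.64% lower, and limma-voom called 0, where 0.391% were higher and 0.287% lower. The log2 fold change was negative in 41 of 53 members (77.4%), against 51.2% of all tested genes, and the median was -0.16, against -0.0089 over all tested genes. The members spanned -0.66 for RPA3 to 0.30 for ORC5. Both AFF4_KD libraries were below both Ctrl libraries in 21 members (39.6%), against 23.0% of tested genes, and above both in 5 (9.43%), against 23.1%. In bulk RNA, fewer cells in S phase and less RNA per cell cannot be told apart.

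**Figure D1:**
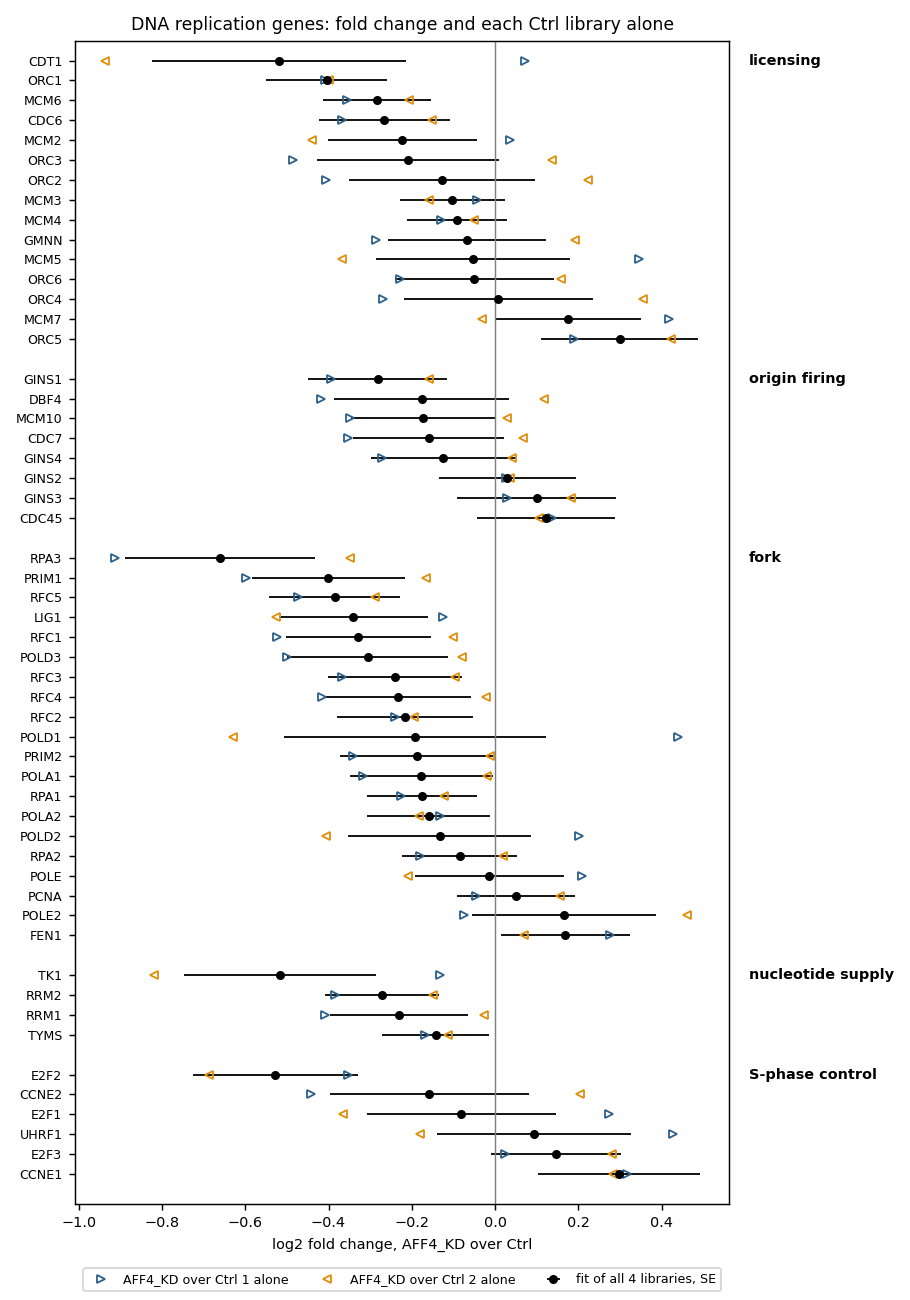
Log2 fold change of each of the 53 replication genes (AFF4_KD over Ctrl, horizontal axis), grouped by role. Black points are the fit of all 4 libraries with its SE, and open triangles are fits of the 2 AFF4_KD libraries against Ctrl 1 alone or Ctrl 2 alone. In 22 genes, among them CDT1, MCM5 and POLD1, the triangles lie on opposite sides of 0.

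Grouped by role, the members had the following medians with both Ctrl libraries in the fit. The median log2 fold change was -0.25 for nucleotide supply (4 of 4 negative), -0.19 for the fork (17 of 20 negative), -0.14 for origin firing (5 of 8), -0.10 for licensing (12 of 15) and 0.0059 for S-phase control (3 of 6). Their order changed with the Ctrl library. Against Ctrl 1 alone the median was -0.31 for origin firing, -0.28 for nucleotide supply, -0.23 for the fork, -0.23 for licensing and 0.15 for S-phase control. Against Ctrl 2 alone it was 0.0542 for origin firing, -0.13 for nucleotide supply, -0.11 for the fork, -0.0512 for licensing and 0.0106 for S-phase control. These medians are descriptions without a test. The ranges of the roles overlapped in the fit with both Ctrl libraries, and there each role except nucleotide supply held members with positive values. Other replication genes, a separate list given below, had another order. There 5 of 10 nucleotide supply genes were negative (median -0.065), and 8 of 8 origin firing genes were (median -0.22).

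**Figure D2:**
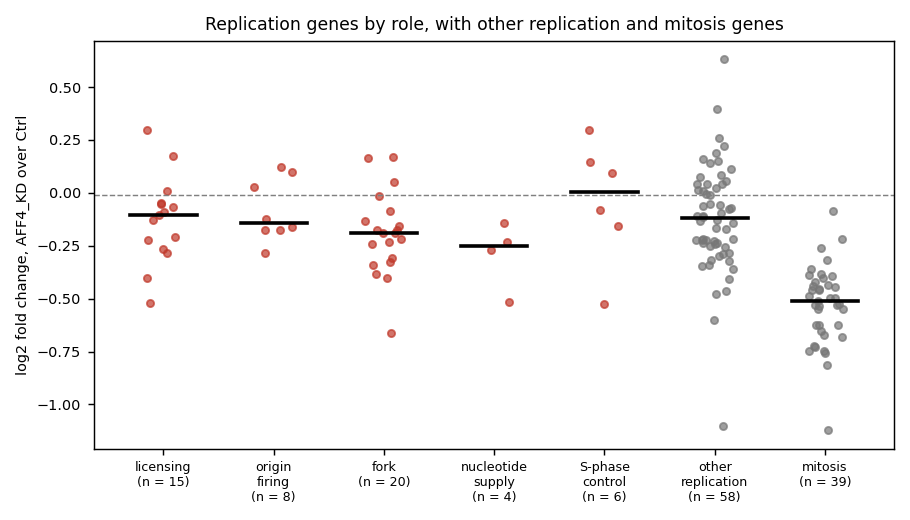
Log2 fold change (AFF4_KD over Ctrl, vertical axis) of the replication genes by role, in red, with 58 other replication genes and 39 mitosis genes in grey. Each point is a gene, black lines are medians and the dashed line is the median of all tested genes. With both Ctrl libraries in the fit, the role medians run from -0.25 to 0.0059, and the mitosis median is -0.51. The lists were chosen with earlier results of these data known.

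The promoter windows of 46 of the 53 members were found in RefSeq (GRCh38.p14), each covering 250 bases before to 50 after a listed start, and a gene counted as holding a motif when any of its windows did. The letters searched on both strands were the E2F-type words TTTCCCGC, TTTCGCGC, TTTGCCGC and TTTGGCGC, which can overlap one another, the CCAAT box (CCAAT), and the cell cycle homology region (CHR; TTTGAA and TTCGAA), an element known from mitotic promoters. An E2F-type word was present in 24 of the 46 members (52.2%), in 3 of 34 mitosis genes with a window (8.82%), in 6.66% of tested genes with a window and in 3.99% of all genes with a window. CHR letters showed the other arrangement, at 4 of 46 members (8.70%) and 27 of 34 mitosis genes (79.4%), against 15.5% of tested genes and 19.5% of all genes. CCAAT was present in 27 of 46 members (58.7%) and 26 of 34 mitosis genes (76.5%), against 43.1% of tested genes and 39.7% of all genes. Members with an E2F-type word had a median log2 fold change of -0.15 (17 of 24 negative), and the 22 without one had -0.18 (17 of 22 negative). The windows below are shown because their genes carry the word before the start and span the range of fold changes, from E2F2 at -0.53 through CDT1, LIG1, MCM6, MCM3 and PCNA to MCM7 at 0.18. Capitals mark the E2F-type words, and the sequences run 5′ to 3′ along the gene's strand.
E2F2 (chr1:23531238-23531305, minus strand): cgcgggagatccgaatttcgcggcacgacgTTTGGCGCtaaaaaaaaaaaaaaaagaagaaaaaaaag
CDT1 (chr16:88803724-88803788, plus strand): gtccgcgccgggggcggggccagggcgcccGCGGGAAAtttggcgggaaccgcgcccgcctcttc
LIG1 (chr19:48170421-48170488, minus strand): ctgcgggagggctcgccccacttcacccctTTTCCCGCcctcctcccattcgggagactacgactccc
MCM6 (chr2:135876558-135876625, minus strand): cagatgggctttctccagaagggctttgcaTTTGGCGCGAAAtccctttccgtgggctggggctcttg
MCM3 (chr6:52284879-52284946, minus strand): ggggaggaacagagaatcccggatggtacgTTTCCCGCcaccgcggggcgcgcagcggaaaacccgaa
PCNA (chr20:5126644-5126711, minus strand): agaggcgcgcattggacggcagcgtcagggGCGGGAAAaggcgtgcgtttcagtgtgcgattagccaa
MCM7 (chr7:100101547-100101614, minus strand): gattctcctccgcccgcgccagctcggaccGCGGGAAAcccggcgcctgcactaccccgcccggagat
In MCM6, 2 words overlap in the stretch shown, of 4 before the start. MCM7 has 2 words before the start, of which 1 is shown. The word shown begins 42 bases before the listed start in E2F2, 59 in PCNA and 187 in MCM7.

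Among the licensing genes, ORC1, the cell-cycle-regulated largest subunit of ORC, gave the smallest p. ORC1 stood at 69.2 and 68.4 CPM in AFF4_KD, against 91.3 and 90.8 CPM in Ctrl. The replicates of each group nearly coincided, and the groups did not overlap. Its log2 fold change was -0.40 ± 0.14 (SE; edgeR adjusted p = 0.259, unadjusted p = 0.0264). ORC5, an ATP-binding ORC subunit, had the largest positive value, with 20.7 and 20.6 CPM in AFF4_KD against 18.1 and 15.5 CPM in Ctrl (0.30 ± 0.19; edgeR adjusted p = 0.530). Both AFF4_KD libraries were above both Ctrl libraries for ORC5. The other ORC subunits lay between these, ORC3 at -0.21, ORC2 at -0.13, ORC6 at -0.05 and ORC4 at 0.0070, and their groups overlapped. The summed level of the 6 ORC genes was 335.8 and 326.4 CPM in AFF4_KD and 421.4 and 315.0 CPM in Ctrl, so the AFF4_KD libraries lay between the Ctrl libraries.

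The loading factors differed in how well the groups separated. CDC6, the ATPase that joins ORC to the MCM ring, was at 84.6 and 76.9 CPM in AFF4_KD and 104 and 89.9 CPM in Ctrl (log2 fold change -0.27 ± 0.16, SE), with no overlap. CDT1, which delivers the MCM ring, was at 64.4 and 66.7 CPM in AFF4_KD, against 62.3 and 126 CPM in Ctrl. Both AFF4_KD libraries of CDT1 thus lay close to Ctrl 1 and far below Ctrl 2, and its fitted value of -0.52 ± 0.30 (edgeR adjusted p = 0.498) became 0.07 against Ctrl 1 alone and -0.94 against Ctrl 2 alone. GMNN, geminin, the inhibitor of CDT1, had -0.07 ± 0.19.

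Of the helicase subunits, MCM2, MCM3, MCM4, MCM6 and MCM7 were among the 9 members with the highest level per kilobase, and MCM5 stood near the middle of the members. On the scale of CPM per kilobase of annotated exons, MCM3 had a mean level of 131 in AFF4_KD and 140 in Ctrl. The other subunits ran down from MCM4, at 97.6 in AFF4_KD and 104 in Ctrl, to MCM5, at 23.4 in AFF4_KD and 24.3 in Ctrl. Annotated exons include all isoforms, which lowers the level of genes with long rare exons. MCM3 was at 478 and 476 CPM in AFF4_KD and 491 and 533 CPM in Ctrl, a log2 fold change of -0.10 ± 0.13. Its AFF4_KD libraries were below both Ctrl libraries, close to Ctrl 1 and further from Ctrl 2. MCM6 had -0.28 ± 0.13 and MCM4 -0.09 ± 0.12, also without overlap, while MCM2 (-0.22 ± 0.18), MCM5 (-0.05 ± 0.23) and MCM7 (0.18 ± 0.18) overlapped. Summed over the 6 subunits, the level was 2328 and 2371 CPM in AFF4_KD and 2391 and 2673 CPM in Ctrl.

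No origin firing gene had an unadjusted p under 0.05. GINS1, a GINS subunit, had the smallest p of this role, with 49.5 and 50.4 CPM in AFF4_KD and 65.5 and 55.9 CPM in Ctrl (log2 fold change -0.28 ± 0.17; edgeR adjusted p = 0.501). Its groups did not overlap. CDC45, the helicase partner of GINS, had the largest positive value, with 39.5 and 42.9 CPM in AFF4_KD and 37.4 and 38.4 CPM in Ctrl (0.12 ± 0.17; edgeR adjusted p = 0.821). GINS2 and GINS3 had 0.03 and 0.10, and GINS4 had -0.12. The kinase CDC7 and its activator DBF4 had -0.16 and -0.18, and MCM10, which helps activate the helicase, had -0.17, all with overlapping groups.

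**Figure D3:**
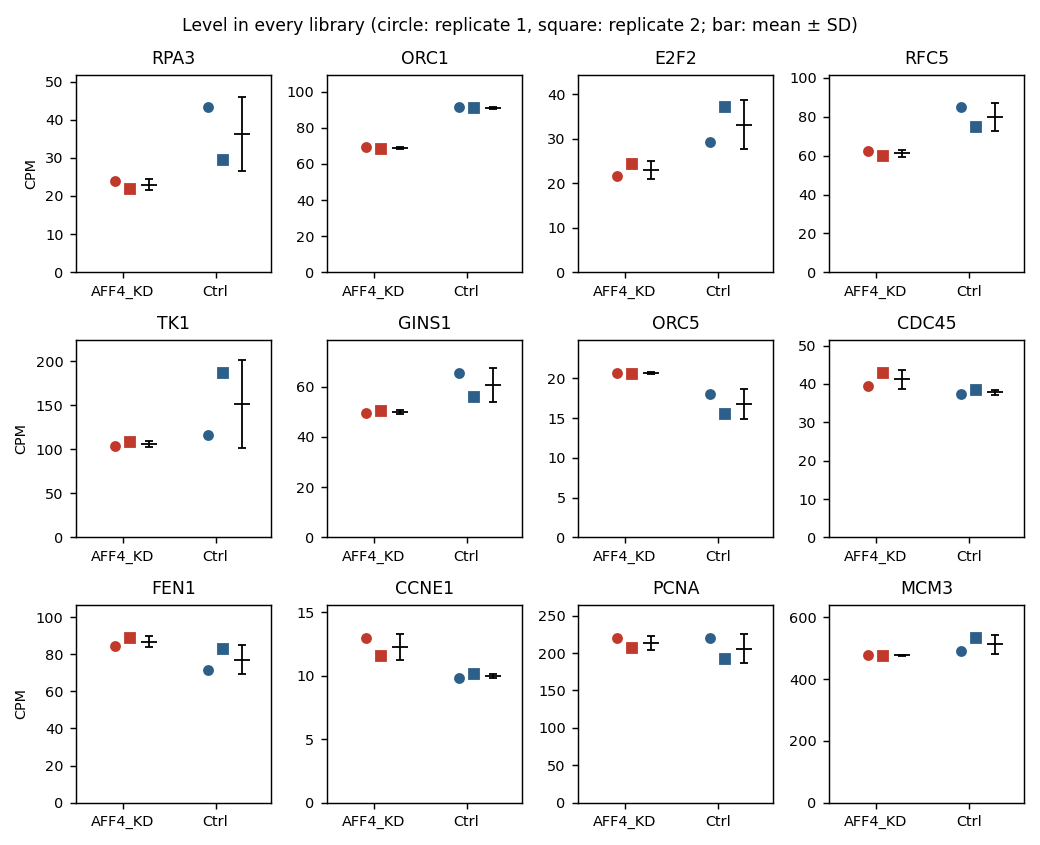
Level in every library (CPM, vertical axis from 0) of 12 replication genes, AFF4_KD in red and Ctrl in blue. Circles are replicate 1, squares replicate 2, and bars mean ± SD (n = 2). ORC1 and RFC5 show lower AFF4_KD libraries with a small spread, whereas RPA3 and TK1 show Ctrl libraries far apart.

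At the fork, RPA3, the smallest subunit of the single-strand binding complex RPA, had the lowest log2 fold change of all members. RPA3 was at 24.0 and 21.9 CPM in AFF4_KD, against 43.2 and 29.3 CPM in Ctrl. The groups did not overlap, and the Ctrl libraries lay further from each other than Ctrl 2 lay from the AFF4_KD libraries. The log2 fold change was -0.66 ± 0.23 (SE; edgeR adjusted p = 0.244, unadjusted p = 0.0228), and it ranged from -0.91 against Ctrl 1 alone to -0.35 against Ctrl 2 alone. RPA1, the main DNA-binding subunit, had -0.18 ± 0.13, and RPA2, the subunit phosphorylated under replication stress, had -0.09 ± 0.14. RPA2 was at 255 and 247 CPM in AFF4_KD and 285 and 248 CPM in Ctrl, overlapping, and was among the 3 members with the highest level per kilobase, at 124 in AFF4_KD and 132 in Ctrl. The difference in fold change between RPA3 and its partners was not tested.

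All 5 RFC genes, which encode the clamp loader, had negative values, where 51.2% of all tested genes did. RFC5 was at 62.5 and 59.8 CPM in AFF4_KD, against 84.8 and 74.9 CPM in Ctrl, with no overlap (log2 fold change -0.39 ± 0.16; edgeR adjusted p = 0.313, unadjusted p = 0.0433). RFC1, the large subunit, had -0.33 ± 0.17, RFC3 -0.24, RFC4 -0.23 and RFC2 -0.22. Only RFC4 of the 5 overlapped between groups, where 23.0% of all tested genes were lower without overlap. The summed level of the 5 RFC genes was 428.5 and 419.4 CPM in AFF4_KD and 572.0 and 461.7 CPM in Ctrl. PCNA, the clamp that RFC loads, was the member with the highest level per kilobase, 145 in AFF4_KD and 140 in Ctrl. It stood at 220 and 206 CPM in AFF4_KD and 220 and 192 CPM in Ctrl, overlapping (log2 fold change 0.05 ± 0.14, edgeR adjusted p = 0.922). The value was -0.05 against Ctrl 1 alone and 0.16 against Ctrl 2 alone. The difference in fold change between PCNA and the RFC genes was not tested.

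The 4 genes of polymerase alpha and primase were also all negative, where 51.2% of all tested genes were. PRIM1, the catalytic primase subunit, had -0.40 ± 0.18, PRIM2 -0.19, POLA1 -0.18 and POLA2 -0.16. Polymerase delta subunits had -0.31 (POLD3), -0.19 (POLD1) and -0.13 (POLD2). POLD1, its catalytic subunit, was at 122 and 133 CPM in AFF4_KD, against 93.8 and 197 CPM in Ctrl, so both AFF4_KD libraries lay between the Ctrl libraries. Polymerase epsilon subunits had -0.01 (POLE) and 0.17 (POLE2), both overlapping. FEN1, the flap endonuclease, had the largest positive value of this role, with 84.6 and 88.9 CPM in AFF4_KD and 71.6 and 82.7 CPM in Ctrl (0.17 ± 0.16; edgeR adjusted p = 0.708). LIG1, the ligase that acts after FEN1, was lower without overlap, at 79.3 and 80.1 CPM in AFF4_KD and 86.8 and 115 CPM in Ctrl (-0.34 ± 0.18).

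The 4 nucleotide supply members were all negative, and 3 of the 4 were lower with no overlap between groups. Of all tested genes, 51.2% were negative and 23.0% lower without overlap. TK1, the thymidine kinase of the salvage pathway, was at 103 and 108 CPM in AFF4_KD, against 116 and 187 CPM in Ctrl (log2 fold change -0.52 ± 0.23; edgeR adjusted p = 0.357). The value was -0.13 against Ctrl 1 alone and -0.82 against Ctrl 2 alone. RRM2, the regulatory subunit of ribonucleotide reductase, was at 365 and 364 CPM in AFF4_KD and 475 and 405 CPM in Ctrl (-0.27 ± 0.14). Its partner RRM1 had -0.23 ± 0.17, with 193 and 185 CPM in AFF4_KD and 250 and 193 CPM in Ctrl. TYMS, thymidylate synthase, had -0.14 ± 0.13, with 257 and 254 CPM in AFF4_KD and 287 and 277 CPM in Ctrl. Of the annotated exons of TYMS, 39.2% overlap ENOSF1 on the opposite strand, and although the library kit keeps strand, the sources used here do not say whether the counting used it, so their reads may not have been kept apart. The same holds for CCNE2, with 37.0% overlapped by INTS8, for MCM2, with 22.7%, and for GINS4, with 21.2%, both overlapped by an antisense gene model. POLA2 (35.1%) and RRM2 (20.2%) are overlapped by a gene model on the same strand. RRM2, PCNA and RPA2 each have 3 annotated pseudogenes bearing their name, so the split of reads from such copies is uncertain.

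The genes that control S-phase entry lay on both sides of 0. E2F2, an activating E2F factor, was at 21.6 and 24.4 CPM in AFF4_KD, against 29.3 and 37.0 CPM in Ctrl, without overlap (log2 fold change -0.53 ± 0.20; edgeR adjusted p = 0.278, unadjusted p = 0.0322). The other activating factors lay nearer to 0, E2F1 at -0.08 ± 0.23 and E2F3 at 0.15 ± 0.16. CCNE1, a cyclin E that activates CDK2, was at 13.0 and 11.5 CPM in AFF4_KD and 9.85 and 10.1 CPM in Ctrl, with AFF4_KD above (0.30 ± 0.19; edgeR adjusted p = 0.548). The second cyclin E gene, CCNE2, had -0.16 ± 0.24. UHRF1, which couples replication to DNA methylation upkeep, had 0.09 ± 0.23.

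The fold changes of many members depended on which Ctrl library they were set against, and the Ctrl libraries differed from each other along the GC content of the transcripts. The Ctrl libraries differed by more than the fold change of AFF4_KD over Ctrl in 36 of 53 members (67.9%). The same share over all tested genes is not given here, so this count only describes the members. Across the 53 members, the log2 difference of Ctrl 2 over Ctrl 1 had a Pearson correlation of 0.95 and a Spearman correlation of 0.92 with GC content, and that of AFF4_KD 2 over AFF4_KD 1 had 0.69 and 0.68. These correlations are across genes that share the same libraries, and over 13218 tested genes with a GC value they were 0.83 and 0.84 for Ctrl and 0.29 and 0.42 for AFF4_KD. In the 17 members with the highest GC content (51.7% to 65.2%), 16 were higher in Ctrl 2 than in Ctrl 1, with a median of 0.45. In the 18 with the lowest GC content (37.6% to 44.0%), 0 were higher in Ctrl 2, with a median of -0.42. The fold change of AFF4_KD over Ctrl itself had a Spearman correlation of 0.02 with GC content over the members.

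**Figure D4:**
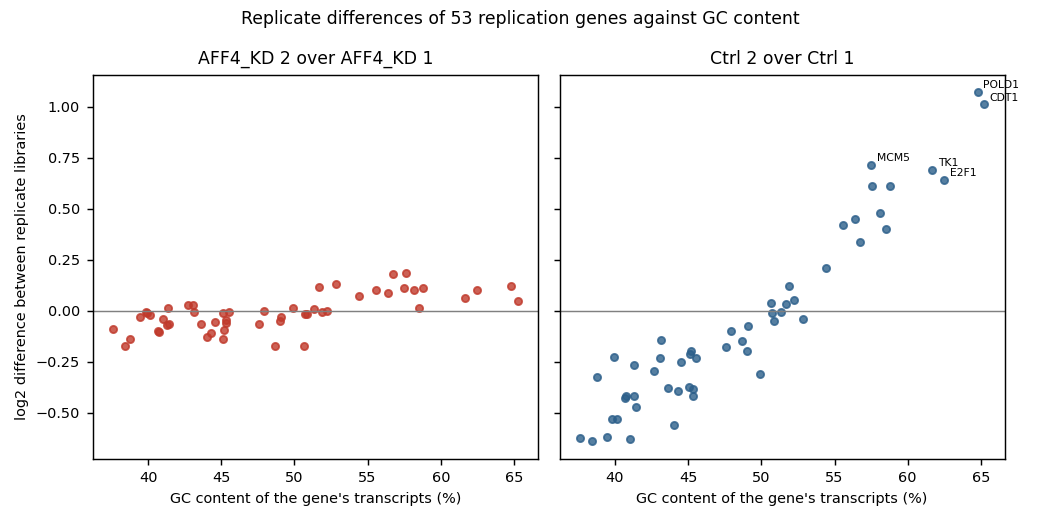
Log2 difference between the replicate libraries of a group (vertical axis) against the GC content of each gene's transcripts in percent (horizontal axis) for the 53 replication genes, AFF4_KD on the left and Ctrl on the right. In Ctrl the differences run from -0.64 for CCNE2 to 1.07 for POLD1 with rising GC content, and in AFF4_KD they stay between -0.17 and 0.19.

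Against each Ctrl library alone, 24 members (45.3%) were negative both times, against 27.6% of all genes in both fits, and 7 (13.2%) were positive both times, against 28.9%. The remaining 22 (41.5%) changed sign with the Ctrl library, close to the 43.5% of all genes. The 24 included ORC1, CDC6, MCM3, MCM4, MCM6, GINS1, the RFC genes, the polymerase alpha and primase genes, POLD3, LIG1, RPA1, RPA3, the nucleotide supply genes and E2F2. The 7 positive both times were ORC5, CDC45, GINS2, GINS3, FEN1, E2F3 and CCNE1. Without Ctrl 1, the edgeR test called 6 members higher and 16 lower, where 21.5% of tested genes were higher and 22.5% lower. Without Ctrl 2 it called 8 higher and 30 lower, where 24.5% were higher and 23.9% lower. In both fits the single Ctrl library was assumed to vary like the AFF4_KD libraries.

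When a lowess trend on transcript GC content was removed from each library, the medians stayed near their values and the calls increased. The trend was fitted to these same 4 libraries and then taken as known. The SE and p below therefore leave out the spread between replicates that it removed. The correction was chosen with earlier results of these data known. With that correction 22 members (41.5%) fell and 2 (3.77%) rose in the edgeR test at an adjusted p under 0.05, where 16.3% of all tested genes fell and 16.7% rose. All 53 members kept the sign they had without the correction, and the median was -0.14. By role, 4 of 4 nucleotide supply genes fell, as did 11 of 20 fork genes, 5 of 15 licensing genes, 1 of 8 origin firing genes and 1 of 6 control genes. RPA3 had -0.65 ± 0.10, E2F2 -0.53 ± 0.08, TK1 -0.47 ± 0.05 and ORC1 -0.42 ± 0.06 (SE; edgeR adjusted p = 9.91e-04, 0.00135, 2.17e-04 and 5.78e-04). The 2 that rose were MCM7 (0.18 ± 0.06) and ORC5 (0.34 ± 0.11), with edgeR adjusted p of 0.0381 and 0.0344. Against Ctrl 2 alone and without the correction, MCM7 was at -0.03. PCNA stayed at 0.05 ± 0.05 (edgeR adjusted p = 0.509). The 5 RFC genes fell, from -0.39 for RFC5 to -0.21 for RFC3, and CDT1 fell, at -0.41 ± 0.07. Without the correction, CDT1 was at 0.07 against Ctrl 1 alone and -0.94 against Ctrl 2 alone. MCM2, which also fell with the correction, was at 0.03 and -0.44 in those fits.

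A list of 59 other replication genes, 58 of them tested, also held mostly small negative values. It had 40 negative members (69.0%), where 51.2% of all tested genes were negative, and a median of -0.12. Of the 58, 0 passed edgeR, where 0.346% of all tested genes were higher and 0.295% lower. Without adjustment of p, 3 were lower and 1 higher, where 8.19% of all tested genes were lower and 6.79% higher. By role, the median of this list was -0.24 for licensing (4 of 7 negative), -0.22 for origin firing (8 of 8) and -0.12 for the fork (12 of 16). For S-phase control it was -0.07 (8 of 11), for nucleotide supply -0.065 (5 of 10) and for chromatin assembly -0.04 (3 of 6). DESeq2 and limma-voom also called 0 of these 58 genes. With no filter on low counts edgeR called 2 lower and 1 higher, where 2.15% of all tested genes were lower and 1.74% higher. With the GC correction 20 fell and 4 rose, where 16.3% of all tested genes fell and 16.7% rose. The 4 with the smallest p were TFDP2, a dimer partner of E2F factors (0.63 ± 0.15), the mitochondrial thymidine kinase TK2 (-1.10 ± 0.28), CCNA2, cyclin A of S phase and G2 (-0.60 ± 0.16), and the repressor E2F8 (-0.48 ± 0.19), with edgeR adjusted p of 0.124, 0.134, 0.151 and 0.306. TFDP2 was at 343 and 332 CPM in AFF4_KD, against 242 and 193 CPM in Ctrl, and TK2 had only 50 and 47 reads in AFF4_KD and 89 and 108 in Ctrl. A list of 39 mitosis genes, like the other lists chosen with earlier results of these data known, stood lower than the replication genes. In it 39 of 39 were negative, where 51.2% of all tested genes were, and the median was -0.51. AFF4_KD lay below Ctrl without overlap in 36, where 23.0% of all tested genes were lower without overlap. Of these 39, 0 passed edgeR, and 30 were lower with no adjustment of p, where 8.19% of all tested genes were. DESeq2 called 7 lower, limma-voom 0, and edgeR with no filter on low counts 13. Of all tested genes, these called 1.64%, 0.287% and 2.15% lower. With the GC correction 37 of them fell, where 16.3% of all tested genes fell. For the mitosis genes the median was -0.38 against Ctrl 2 alone and -0.65 against Ctrl 1 alone, and for the replication genes -0.08 and -0.23. The difference between these lists was not tested.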

How the data were processed

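Poly(A) RNA libraries of HEL cells, 2 AFF4_KD and 2 Ctrl, were compared. The deposited table held read counts, as whole numbers, for each gene symbol. Per the submitters' processing notes, fastp 0.13.1, HISAT2 2.1.0 and featureCounts 1.6.1 were used with hg38. The gene annotation, strand setting and handling of multi-mapped reads, which set how reads of overlapping genes and copies are split, are not stated in those notes or the labels. Libraries were strand-specific per the labels' protocols. Columns were matched to samples by name, with 0 other columns.

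The deposited counts were tested in R 4.3.3 with edgeR 4.0.16: filterByExpr (minimum count 10, minimum total 15), TMM scaling and a quasi-likelihood F test of group over all 4 libraries, with Benjamini-Hochberg adjustment over all 13572 tested genes and calls at an adjusted p under 0.05. Folds are relative to the other genes. The SE is the absolute log2 fold change over the square root of F. CPM uses TMM-scaled sizes. The common biological coefficient of variation was 0.153. In simulated data on 13421 genes, 71% of 2-fold and 97% of 4-fold changes were recovered, and 7 unchanged genes were called. The simulated libraries held no trend on GC content, unlike the deposited Ctrl libraries, so recovery in these data may differ. In the deposited data every member changed by less than 2-fold.

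GENCODE v29 (GRCh38, the assembly of hg38) gave lengths, overlaps and transcript GC content (97.4% of tested genes). Alternatives were DESeq2 1.42.0, limma-voom (limma 3.58.1), scaling by RLE, by upper quartile or by library size alone, omitting the filter, requiring 5 CPM in 2 or more libraries, the replicate number as a block, a GC correction (lowess span 0.4, as an offset) with and without the block, each library left out, and an adjusted p under 0.01. The members, lists and the GC correction were chosen with earlier results of these data known. Every member is named; values per library are given for members with an unadjusted p under 0.05, the smallest p and largest positive value of each role, and the 3 highest levels per kilobase. Values per library of CDC6, CDT1, POLD1, LIG1, RRM1, RRM2 and TYMS were added after they were seen.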

Additional observations from a re-analysis of the deposited data

How the results depend on the processing

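AFF4 kept its sign throughout and lost its call with the stricter filter, 5 CPM in 2 or more libraries (-2.10, edgeR adjusted p = 0.0552). Over all tested genes, 47 were higher and 40 lower. The counts were 328 and 406 with no filter, 1 and 4 with the stricter filter, 188 and 218 in DESeq2, 1 and 2 at an adjusted p under 0.01, 408 and 480 with the replicate number as a block, 2269 and 2207 with the GC correction, and 2889 and 2738 with the GC correction and the block. With 1 library left out they ranged from 35 to 3407 higher and from 11 to 3315 lower, and the large counts came without Ctrl 1 or Ctrl 2, where only the spread between the AFF4_KD libraries remained. Deviations of same-numbered libraries correlated at 0.285 over 13572 genes, but with 2 pairs the numbers are not taken to pair the samples. Among the members, 0 were called with the block alone (background 3.01% higher and 3.54% lower), 2 higher and 22 lower with the GC correction, and 4 higher and 24 lower with both (background 21.3% and 20.2%). With 1 library left out, 0 to 8 members were higher and 0 to 30 lower, with 8 and 30 without Ctrl 2, 6 and 16 without Ctrl 1, and 0 without either AFF4_KD library (background 0.252% higher and 0.0791% lower without AFF4_KD 1, 0.258% and 0.108% without AFF4_KD 2). With the block, edgeR called 13 mitosis genes lower, and 2 other replication genes lower and 1 higher. The median log2 fold change of the mitosis genes was -0.38 without Ctrl 1 and -0.65 without Ctrl 2. That of the other replication genes was -0.04 without Ctrl 1 and -0.18 without Ctrl 2. Other causes of these shifts were not tested.

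The members' median ranged from -0.23 to -0.0791 with 1 library left out. By role it ranged from -0.23 to -0.0512 for licensing, -0.31 to 0.0542 for origin firing, -0.23 to -0.11 for the fork, -0.28 to -0.13 for nucleotide supply and -0.0373 to 0.15 for S-phase control. In the other alternatives 40 to 43 of 53 members were negative. With the stricter filter ORC4 was at -0.0192 and GINS2 at -0.0043, and POLE was at 0.0121 with library-size scaling and 0.0044 in limma-voom. With 1 library left out, the sign turned for 22 members. Their ranges were ORC2 -0.41 to 0.22, ORC3 -0.48 to 0.14, ORC4 -0.27 to 0.36, ORC6 -0.23 to 0.16, CDT1 -0.94 to 0.0723, GMNN -0.28 to 0.19, MCM2 -0.44 to 0.0348, MCM5 -0.37 to 0.35, MCM7 -0.0311 to 0.42, CDC7 -0.35 to 0.0675, DBF4 -0.42 to 0.12, MCM10 -0.35 to 0.0287, GINS4 -0.27 to 0.0410, POLD1 -0.63 to 0.44, POLD2 -0.41 to 0.20, POLE -0.21 to 0.21, POLE2 -0.0754 to 0.46, PCNA -0.0452 to 0.16, RPA2 -0.18 to 0.0189, CCNE2 -0.44 to 0.20, E2F1 -0.37 to 0.27 and UHRF1 -0.18 to 0.43. All members differed by less than 2-fold, and recovery of changes that small was not simulated.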
